A study of Mus musculus with 14 samples.

Results

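The genes described here encode the cytosolic ribosomal proteins, the protein part of the ribosome that translates messenger RNA in the cell body, in subcutaneous white adipose tissue (scWAT) of exercised and sedentary mice. They were chosen by gene symbol: Rpl or Rps followed by a digit, Rplp0, Rplp1, Rplp2 or Rpsa, on probe sets that the platform annotation pairs with 1 symbol only, with the S6 kinases (Rps6k) and pseudogenes left out. The rule found 106 probe sets of 50 genes, among 18193 genes with such a probe set, and the brightest probe set by mean signal stands for each gene. Of the 50 genes, 49 passed the filter on low signal (a mean over the 14 arrays of at least 389.8) and entered the test. These were 20 genes of the large subunit, 20 of 21 genes of the small subunit, 2 of the acidic stalk, 6 paralogs, which are duplicated versions of other ribosomal protein genes, and Rps19bp1, which the rule admits by its symbol but which encodes a protein that binds Rps19.

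The exercised group had 7 arrays from mice kept in wheel cages for 11 days, and the sedentary group had 7 arrays from control mice over the same 11 days. Both groups were male C57BL/6 mice aged 12 weeks with no transgene or agent named, and each array was hybridised with biotin-labelled cRNA made from total scWAT RNA on an Affymetrix mouse platform. Since nothing in the labels says that the 7 arrays of a group are 7 mice, a p-value here speaks of the spread among arrays, part of which may be technical. In whole tissue, fewer cells of a type and less RNA per cell cannot be told apart. The values are MAS5 signals, in which several short probes of a transcript are combined into 1 linear intensity and every array is scaled to the same trimmed mean. A log2 difference below is the exercised mean minus the sedentary mean of log2(signal + 46.7), an SE is its standard error with n = 7 arrays in each group, and an adjusted p is limma's moderated test with Benjamini-Hochberg adjustment over 12944 genes. The mature adipocyte markers averaged 14.76 ± 0.16 on the log2 scale in exercised and 14.67 ± 0.40 in sedentary arrays (SD, n = 7 each), which fits the labelled tissue. Skeletal muscle markers were also high on some arrays. Their mean exceeded the adipocyte mean on exercised array 3 (15.07 against 14.73) and exercised array 6 (15.26 against 14.66), and was lower than it on the other arrays.

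As background, each ribosome holds 1 copy of most of these proteins, and their mRNAs are among the most abundant in any cell. The mRNAs of vertebrate ribosomal proteins begin with a 5′ terminal oligopyrimidine (TOP) tract, through which the growth-controlling kinase complex mTORC1 and the protein Larp1 adjust their translation. Because of that layer of control, an mRNA level does not give the rate at which ribosomal proteins are made.

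The promoters of the genes that the later results turn on are printed here because they show the shared start region of the family beside members that lack its letters. RefSeq promoter windows (assembly GRCm38.p6) were found for 44 of the 50 genes, leaving out Rps29, Rpl7, Rpl8, Rps20, Rps14 and Rps4l. Each line gives the 60 bases before and the 20 bases from the annotated start, 5′ to 3′ on the strand of the gene. Capitals mark either the hexamer CGGAAG, the core letters of an ETS factor motif, on either strand (CTTCCG on the other), or a pyrimidine tract on the sense strand, defined as a C followed by at least 9 more bases that are each C or T. The stretches lie at chr4:86857348-86857427 on the minus strand for Rps6, and on the plus strand at chr9:44407654-44407733 for Rps25, chr11:101442185-101442264 for Rpl27, chr9:120571457-120571536 for Rpl14, chr5:115559407-115559486 for Rplp0 and chr3:28805448-28805527 for Rpl22l1.
Rps6: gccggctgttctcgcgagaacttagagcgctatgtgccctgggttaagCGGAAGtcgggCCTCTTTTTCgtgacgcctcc
Rps25: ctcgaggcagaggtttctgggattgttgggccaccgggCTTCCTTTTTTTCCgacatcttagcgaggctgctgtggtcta
Rpl27: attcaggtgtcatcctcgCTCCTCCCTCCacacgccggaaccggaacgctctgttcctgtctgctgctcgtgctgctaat
Rpl14: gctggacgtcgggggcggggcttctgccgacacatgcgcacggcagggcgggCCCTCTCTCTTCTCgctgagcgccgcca
Rplp0: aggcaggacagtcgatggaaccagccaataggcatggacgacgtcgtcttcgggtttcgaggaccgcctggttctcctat
Rpl22l1: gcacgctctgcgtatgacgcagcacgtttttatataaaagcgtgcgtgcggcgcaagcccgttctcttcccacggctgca

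Over the whole window of 250 bases before to 50 after the start, CGGAAG or its reverse complement stood in 31 of the 44 members (70.5%), against 32.3% of 10394 tested genes with a window. The pyrimidine tract, searched in the 50 bases on each side of the start, stood in 24 of the 44 members (54.5%), against 17.8% of those genes. The TATA box letters TATAAA, searched on the sense strand in the 50 bases before the start, stood in 1 member (2.27%), against 2.45% of tested genes, and that member is Rpl22l1, the paralog of Rpl22, in whose stretch they can be read above. The 2 searches for CGGAAG and the tract can overlap in letters, and a match is a description of these windows, not a site of binding. Rplp0 and Rpl22l1 show neither set of capitals in the printed stretch, which says only that these letters are absent there.

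Most ribosomal protein genes had a slightly lower mean in exercised than in sedentary scWAT, but no single gene passed the test. The members varied together across arrays, so counts of members are not counts of independent observations. A shift of the whole family was not tested. With 1 array left out, the members' median difference ran from -0.14 (without sedentary array 7) to -0.06 (without sedentary array 5). Of the 49 genes tested, 41 (83.7%) had a negative log2 difference, against 55% of all tested genes. Their median difference was -0.10, beside -0.03 over all genes tested. With limma, 0 of 49 genes reached an adjusted p under 0.05, while 5.53% of all genes did (4% higher in exercised scWAT and 1.53% lower). At an unadjusted p under 0.05, 9 members were lower, against a background of 10.5% of all genes, and 1 was higher, against 11.3%; that 1, Rpl3l, reached the filter only through its exercised arrays and is given as a description only. In 18 of the 49 members all 7 exercised arrays lay below the sedentary median, where 13.3% of all tested genes did. None of the 49 genes had groups that did not overlap, where 2.68% of all genes did. The SE of a member's difference had a median of 0.08 and ran from 0.05 to 0.82, and 45 of 49 differences lay within 0.25 of 0 on the log2 scale.

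**Figure D1:**
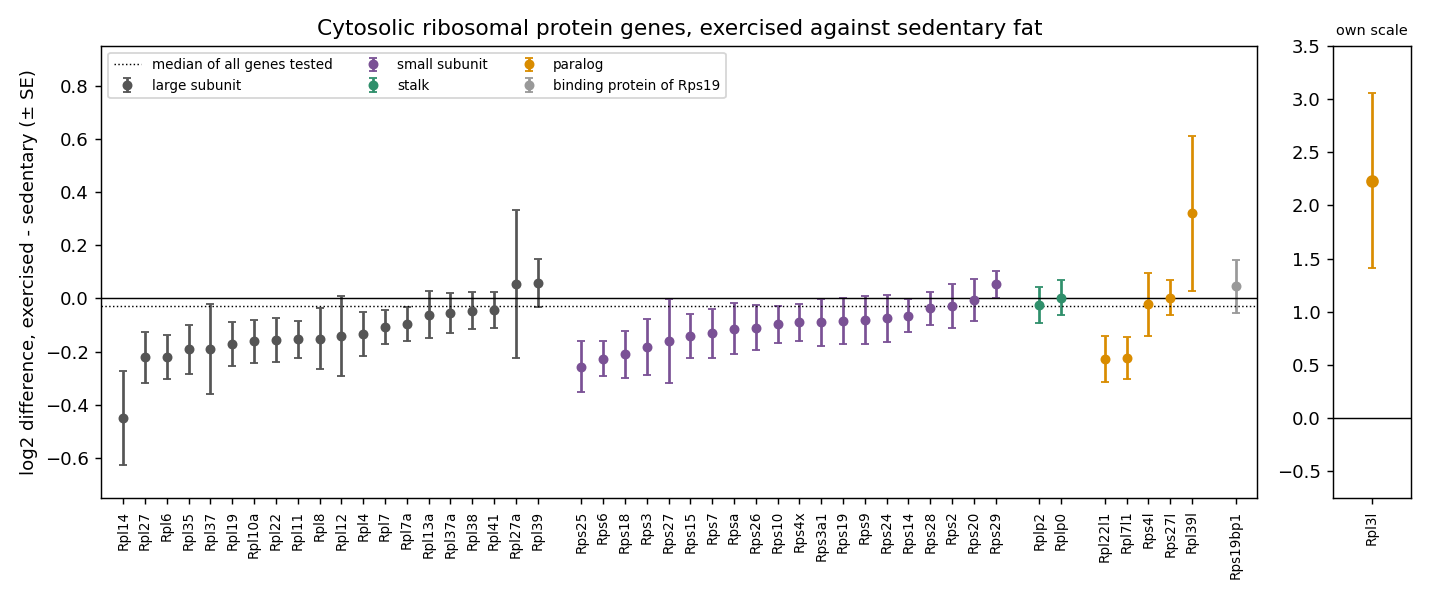
The log2 difference, exercised minus sedentary, of each of the 49 genes with its SE as a bar (n = 7 arrays a group), ordered within its role, with the median of all tested genes as a dotted line; Rpl3l has an axis of its own. Most genes of both subunits lie between -0.25 and 0, and Rpl14, Rpl39l and Rpl3l stand farthest from 0.

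Genes of the large subunit, which carries the site where peptide bonds form, were negative in 18 of 20 cases with a median of -0.15. Those of the small subunit, which reads the mRNA, were negative in 19 of 20 with a median of -0.09. In both subunits 0 genes passed limma's adjusted test. At an unadjusted p under 0.05 there were 4 lower genes of 20 in the large and 3 of 20 in the small subunit, against 10.5% of all genes. Over the 42 tested genes of both subunits and the stalk, without paralogs and Rps19bp1, the array means were 14.50 ± 0.09 on the log2 scale in exercised scWAT and 14.61 ± 0.14 in sedentary scWAT (SD, n = 7 each).

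Rps6 had the smallest p of all members. Its protein is the small-subunit component that S6 kinases phosphorylate downstream of mTORC1. Its signal had a lowest value of 3747, a median of 4033 and a highest of 4174 in exercised arrays, against 4076.5, 4702 and 5356 in sedentary arrays. All 7 exercised arrays were below the sedentary median, and sedentary array 7 was the one sedentary array inside the exercised range. This is a log2 difference of -0.23 (SE 0.07), with a limma adjusted p of 0.0595. Without sedentary array 7 the adjusted p was 0.0280, and over 28 alternatives it ranged from 0.0280 to 0.174 and was under 0.05 in 4. A far brighter probe set that names Rps6 beside other symbols (mean signal 51436) gave a difference of -0.05 (SE 0.07, limma adjusted p 0.693).

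Rpl14, a large-subunit protein, had the largest negative difference and the lowest mean signal among the tested members, 620.7. Its signals were 301.3, 538.0 and 697.4 (lowest, median, highest) in exercised arrays, against 438.9, 745.9 and 943.9 in sedentary arrays. Every exercised array lay below the sedentary median, but the groups overlapped widely. The log2 difference was -0.45 (SE 0.18, limma adjusted p 0.156). On a brighter probe set shared with other symbols, where it averaged 31393 ± 3143 in exercised and 36529 ± 4810 in sedentary arrays (SD, n = 7 each), the difference was -0.21 (SE 0.09, adjusted p 0.191).

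Rps25 is a small-subunit protein known for its part in starting translation at internal ribosome entry sites. Its signals were 1139, 1526 and 1690 (lowest, median, highest) in exercised arrays, against 1545, 1752 and 2204 in sedentary arrays. All exercised arrays were below the sedentary median, but the highest of them overlapped the lowest sedentary arrays. Its log2 difference was -0.26 (SE 0.10, limma adjusted p 0.141). A brighter probe set shared with other symbols, at 26683 ± 1214 in exercised and 29658 ± 2937 in sedentary arrays (SD, n = 7 each), gave -0.15 (SE 0.07, adjusted p 0.240).

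Rpl27, a large-subunit protein, was measured at 23695, 27750 and 30766 (lowest, median, highest) in exercised arrays, against 25477, 30500 and 41635 in sedentary arrays. Exercised array 5 was lowest and sedentary array 5 highest, and 5 of 7 exercised arrays lay below the sedentary median. On the log2 scale the difference was -0.22 (SE 0.10, limma adjusted p 0.195).

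Rpsa, the small-subunit protein also called the laminin receptor precursor, had signals of 31073, 36555 and 39299 in exercised arrays, against 29438, 40367 and 48632 in sedentary arrays. Its lowest array of all was sedentary array 7, although all 7 exercised arrays were below the sedentary median. That is a log2 difference of -0.11 (SE 0.10, limma adjusted p 0.515), which was -0.06 without sedentary array 5, -0.18 without sedentary array 7 and -0.17 under quantile normalization. Rpl12, at the base of the stalk, was dim here with a mean signal of 1396, and its difference was -0.14 (SE 0.15, adjusted p 0.608). It was -0.07 without exercised array 5, -0.06 without sedentary array 5 and -0.23 without sedentary array 7, and a probe set shared with other symbols (mean signal 46331) gave -0.20 (SE 0.11, adjusted p 0.347).

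The stalk is the flexible arm of the large subunit that recruits the elongation factors. Its scaffold Rplp0, a gene often used as a reference in quantitative PCR, had signals of 47376, 51119 and 55312 (lowest, median, highest) in exercised arrays, against 44829, 50177 and 60063 in sedentary arrays. The exercised values lay inside the sedentary range, and the log2 difference was 0.0035 (SE 0.07, limma adjusted p 0.983), with a sign that turned under quantile normalization. The acidic protein Rplp2 had a difference of -0.02 (SE 0.07, adjusted p 0.859).

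The brightest member was Rps29, a small zinc-binding protein of the small subunit, whose probe set was number 6 in mean signal of all probe sets on the array. Its signals were 75870, 81756 and 85291 in exercised arrays, against 73792, 77948 and 84633 in sedentary arrays. Here 6 of 7 exercised arrays lay above the sedentary median, but the groups overlapped over nearly their whole range. The log2 difference was 0.05 (SE 0.05, limma adjusted p 0.562), and it was -0.06 under quantile normalization. Rps20, the next in brightness, had a difference of -0.01 (SE 0.08, adjusted p 0.978).

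**Figure D2:**
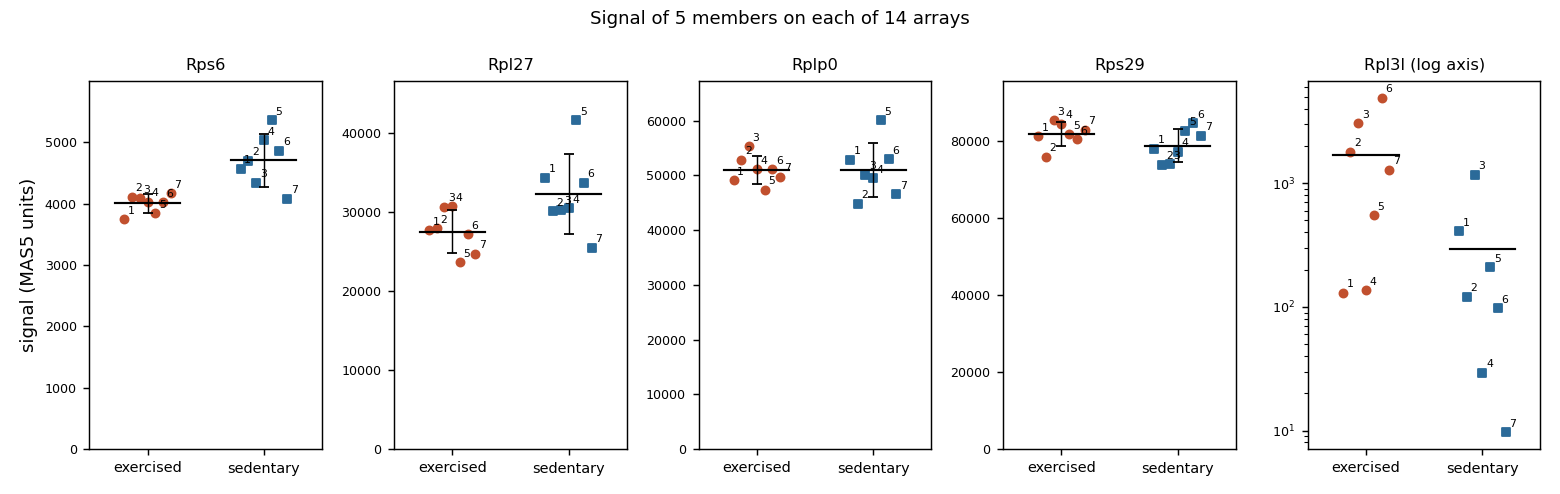
MAS5 signal of Rps6, Rpl27, Rplp0, Rps29 and Rpl3l on each array, exercised left of sedentary, numbered by replicate; the horizontal lines are means, the bars are SD (n = 7 a group), and Rpl3l is drawn on a log axis with its mean only. Exercised Rps6 values lie between 3747 and 4174, below all but one sedentary array, while the Rplp0 and Rps29 groups overlap.

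The paralogs had differences of both signs, and 0 of 6 passed limma's adjusted test (Rpl22l1 and Rpl7l1 were lower at an unadjusted p under 0.05, against 10.5% of all genes). Rpl3l, the version of Rpl3 made in heart and skeletal muscle, had the largest difference of any member. Its signals on exercised arrays 1 to 7 were 130, 1796, 3073, 135.8, 553.8, 4918 and 1290, and on sedentary arrays 1 to 7 they were 408.5, 120.7, 1169, 29.3, 208.9, 97.1 and 9.7. All exercised arrays lay above the sedentary median, yet the exercised arrays alone spanned 130 to 4918. The log2 difference was 2.23 (SE 0.82). With group means of 1700 in exercised and 291.8 in sedentary arrays, the gene passed the filter of 389.8 only through the exercised group, so its difference is given as a description with no test.

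Skeletal muscle markers moved with Rpl3l. Their mean was 12.68 ± 2.71 on the log2 scale in exercised and 10.12 ± 1.83 in sedentary arrays (SD, n = 7 each), with ranges of 8.86 to 15.26 and 8.58 to 13.38. Of 20 such markers, 18 were tested, all 18 had positive differences (median 2.75) and 0 passed limma's adjusted test. At an unadjusted p under 0.05, 14 were higher, against 11.3% of all genes. Myh2, with means of 1103 in exercised and 241.9 in sedentary arrays, passed the filter only through the exercised group. Its positive difference is therefore a description, and it is not among the 14. The 7 arrays with the highest muscle marker mean stood in the same order for Rpl3l: exercised arrays 6, 3, 2 and 7, sedentary array 3, exercised array 5 and sedentary array 1. The part of muscle RNA in the Rpl3l difference was not tested.

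Rpl22l1, which in other mouse tissues is known to be kept in check by Rpl22, had signals of 12336, 15660 and 16999 (lowest, median, highest) in exercised arrays, against 14621, 17303 and 20210 in sedentary arrays. All 7 exercised arrays were below the sedentary median, and the difference was -0.23 (SE 0.09, limma adjusted p 0.146). Rpl7l1, a nucleolar relative of Rpl7, had signals of 2785, 3038 and 3279 in exercised arrays, against 3176, 3442 and 4419 in sedentary arrays. Its exercised arrays also lay below the sedentary median, with a difference of -0.22 (SE 0.08, adjusted p 0.115), which was -0.14 over the mean of its probe sets and -0.09 on the dimmest.

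The remaining paralogs showed no such order. Rpl39l, a relative of Rpl39 known from male germ cells, had a difference of 0.32 (SE 0.29, limma adjusted p 0.546), and sedentary array 7, at a signal of 308.9, lay far below the other 13 arrays. Without that array the difference was 0.019. Rps27l, a relative of Rps27 known as a p53 target, differed by 0.0029 (SE 0.07, adjusted p 0.986). Rps4l, a relative of Rps4x, differed by -0.02 (SE 0.12, adjusted p 0.930). The 3 small differences of Rplp0, Rps27l and Rps4l had no stable sign over the alternatives.

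The members' signals were high enough to bear on how far a difference can be read. Of the 49 genes, 35 had a mean signal over 20000, 33 were among the 500 brightest probe sets on the array and 13 were among the brightest 100, where fluorescence can approach saturation and compress differences. The median difference was -0.15 for the 14 members with a mean signal of 20000 to 40000 and -0.06 for the 21 above 40000. Other genes in those brightness classes had positive medians, 0.11 and 0.10, and were negative in 35.5% and 26.9% of cases, against 92.9% and 90.5% of the members. The 12 members under 5000 had a median of -0.08. They were negative in 58.3% of cases, against 57.1% of other genes under 5000. The 2 members at 5000 to 20000 had a median of -0.21. Unlike the brightest class, the class under 5000 mixes subunit genes with paralogs and Rps19bp1, so the class medians do not compare like genes. Whether saturation changed the members' differences was not tested.

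Probe sets of 1 gene can be compared without the differences between genes. In 18 members with at least 2 probe sets over a signal of 5000, the dimmest had a lower difference than the brightest in 16, with medians of -0.17 and -0.08. Rps10, a small-subunit protein, had the widest gap. Its probe set with a mean of 14584 gave -0.79 (SE 0.36, limma adjusted p 0.234), and its brightest, at 51374, gave -0.10. On the dimmer one the exercised signals, 6857 to 26284, lay inside the sedentary range of 5470 to 36282. Rpl7, of the large subunit, gave -0.46 on its dimmest and -0.11 on its brightest. Rps10 and Rpl7 were singled out after their values were seen. Probe sets under 5000 were left out of this comparison, and some go the other way. Rpl35 gave 0.15 on a probe set with a mean of 554.6, against -0.19 on its brightest. Of the 24 tested member probe sets under 5000, 14 (58.3%) were negative, with a median of -0.07. Over all 96 member probe sets tested, 82 had negative differences, 0 passed limma's adjusted test over all probe sets (background 3.83%), and 21 were lower at an unadjusted p under 0.05 (background 10.2%). Whether saturation, the choice of transcript end or cross-hybridisation separates such probe sets was not tested.

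Near-identical processed pseudogenes are a known feature of this family, and many probe sets carry several symbols. A further 110 probe sets named a ribosomal protein beside other symbols and were not used for the genes above. Among those that passed the filter, 95 of 104 had negative differences and 0 passed limma's adjusted test over all probe sets. At an unadjusted p under 0.05, 21 were lower, against 10.2% of all probe sets. Taken by the brightest such probe set, 25 of 31 ribosomal protein genes with no probe set of their own were counted. All 25 were negative, with a median of -0.11. Of these 25, 3 were lower at an unadjusted p under 0.05, near the 10.2% of all probe sets. One of the 25 was Rpl3, a large-subunit protein near the peptidyl transferase centre, with a difference of -0.11 (SE 0.08, limma adjusted p 0.462). The rest of the 31 occur only on probe sets that name a second ribosomal protein symbol and were not counted. Among them were Rpl32 at -0.23 (SE 0.10, limma adjusted p 0.191) and Rpl36a at -0.25 (SE 0.12, adjusted p 0.258). Rps16, of the small subunit, had a mean of only 26.1 on its own probe set and was the member that failed the filter. On a shared probe set it averaged 50051 ± 1938 in exercised and 50165 ± 6851 in sedentary arrays (SD, n = 7 each), a difference of mean log2 values of 0.01 (SE 0.08, adjusted p 0.972). Signals of these genes may therefore include RNA of close copies.

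**Figure D3:**
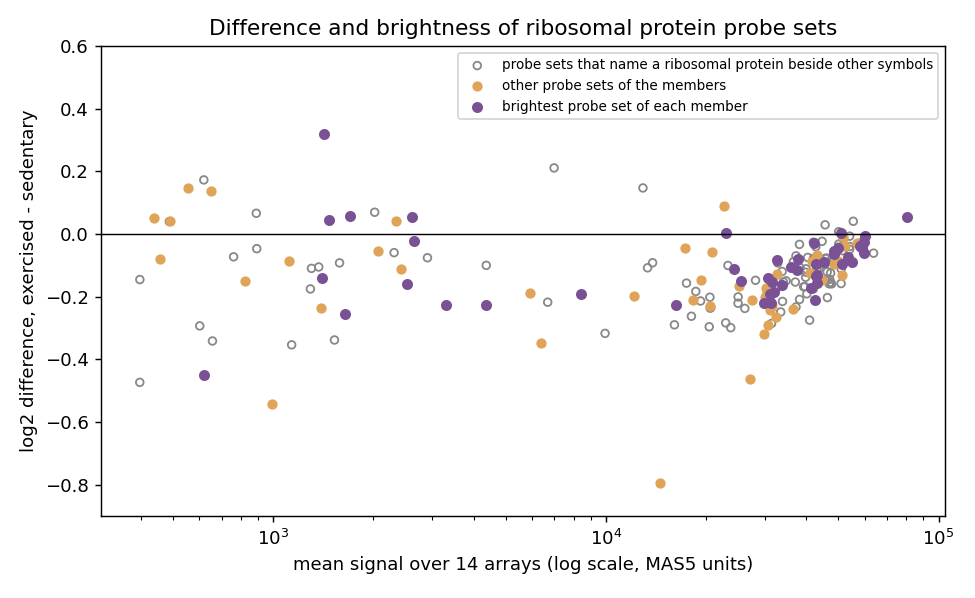
The log2 difference, exercised minus sedentary, of each tested ribosomal protein probe set against its mean signal over 14 arrays on a log axis: the brightest probe set of each member, the members' other probe sets, and probe sets that name a ribosomal protein beside other symbols; Rpl3l, at 2.23, lies above the axis limit. Most probe sets over a signal of 20000 lie below 0, and the brightest lie nearest to it, with the Rps10 probe set at -0.79 lowest of all.

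The members varied together from array to array within each group. Sedentary array 5 had the highest signal of all 14 arrays for 35 of the 42 genes of the subunits and stalk, exercised array 5 the lowest for 22 and sedentary array 7 the lowest for 13. The mean over the 42 genes was 14.30 in exercised array 5, against 14.46 to 14.57 in the other exercised arrays, and it was 14.80 in sedentary array 5 and 14.36 in sedentary array 7, against 14.56 to 14.71 in the other sedentary arrays. The extremes of the sedentary group were thus wider apart than the group means. Without sedentary array 5 the median difference of the members was -0.06, beside -0.03 over all genes. Then 6 members were lower at an unadjusted p under 0.05, against 10.2% of all genes. Without sedentary array 7 the members' median was -0.14, beside -0.02 over all genes, and 19 members were lower, against 14.2% of all genes.

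Lymphocyte markers moved with the members across the arrays. The mean of 17 such genes ran from 8.83 to 11.99 on the log2 scale in exercised arrays and from 9.0 to 12.64 in sedentary arrays, with means of 10.98 ± 1.21 and 11.59 ± 1.19 (SD, n = 7 each). Sedentary arrays 5, 6 and 1 were the 3 highest of 14 in both the ribosomal protein mean and the lymphocyte mean, and exercised array 7, sedentary array 7 and exercised array 5 the 3 lowest in both. Of 20 lymphocyte markers 17 were tested, all 17 had negative differences (median -0.60) and 0 passed limma's adjusted test. At an unadjusted p under 0.05, 1 was lower, against 10.5% of all genes. All 14 arrays are points of this comparison, they share 1 scaling, and the part of lymphocyte RNA in the ribosomal protein differences was not tested.

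With exercised arrays 5 and 7 and sedentary array 7 left out, the 3 arrays with the lowest lymphocyte means, the members' median difference was -0.10. The median over all genes was then -0.02. Of 49 members, 44 were negative, against 53.9% of all genes, and 0 passed limma's adjusted test. At an unadjusted p under 0.05, 9 were lower, against 9.29% of all genes. The 3 arrays left out were chosen after the data were seen. On the arrays kept, lymphocyte means still ran from 11.25 to 11.99 in exercised and from 11.52 to 12.64 in sedentary arrays. Leaving out these 3 therefore does not test the part of lymphocyte RNA. Macrophage markers averaged 12.75 ± 0.15 in exercised and 13.05 ± 0.32 in sedentary arrays (SD, n = 7 each). All 12 of them had negative differences, and 1 was lower by limma's adjusted test (8.33%, against 5.53% of all genes). It was the adaptor gene Tyrobp (adjusted p 0.0482). Mature adipocyte markers were lowest in sedentary array 5, at 13.85, and highest in exercised array 5, at 15.09, the reverse of the ribosomal proteins at those ends. The 3′ to 5′ log2 ratio of the Gapdh control probe sets, a sign of RNA integrity, was -0.40 ± 0.06 in exercised and -0.45 ± 0.07 in sedentary arrays. For the Actb control probe sets it was 0.42 ± 0.11 in exercised and 0.42 ± 0.07 in sedentary arrays (SD, n = 7 each for both controls).

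**Figure D4:**
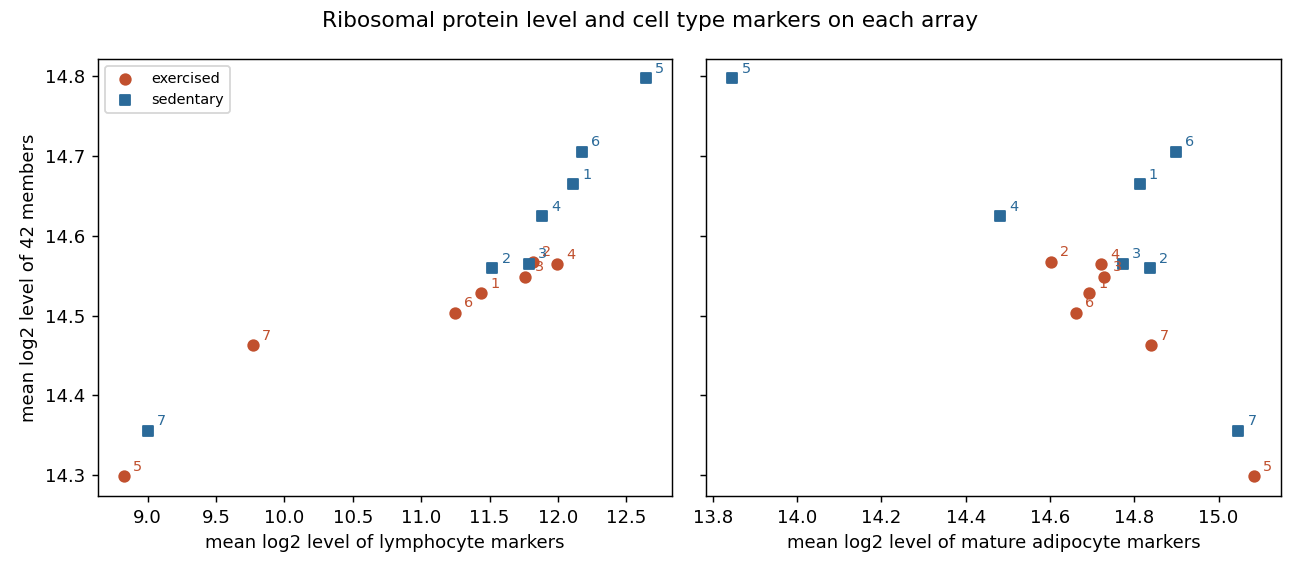
The mean log2 level of the 42 ribosomal protein genes on each array against the mean of 17 lymphocyte markers (left) and of 10 mature adipocyte markers (right), numbered by replicate in each group. Exercised array 5 and sedentary array 7 are low in ribosomal proteins and lymphocyte markers, and sedentary array 5 is high in both and lowest in adipocyte markers.

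Genes whose products belong to the same process were read beside the members. The other mRNAs known to carry a TOP tract, such as elongation factors, had a median difference of -0.07 over 15 genes tested. Of these, 2 fell and 0 rose by limma's adjusted test (13.3%, against 5.53% of all genes). Nap1l1, a histone chaperone, had signals of 12450, 16305 and 17207 (lowest, median, highest) in exercised arrays, against 18441, 20236 and 23168 in sedentary arrays. Its groups did not overlap, and on the log2 scale it fell by 0.37 (SE 0.08, adjusted p 0.0107; 0.00155 to 0.124 over the alternatives, past the threshold in 25 of 28). Eif3f, a subunit of initiation factor eIF3, fell by 0.28 (SE 0.08, adjusted p 0.0462), a call that held in 9 of 28 alternatives (0.0116 to 0.167).

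Ribosome biogenesis factors, which assemble the subunits in the nucleolus, were negative in 27 of 30 tested genes, with a median of -0.16. Of these, 0 were past limma's adjusted threshold and 8 were lower at an unadjusted p under 0.05, against 10.5% of all genes. Pes1, of the PeBoW complex that matures large-subunit rRNA, was measured at 2247 to 2999 in exercised and 2709 to 3942 in sedentary arrays, a difference of -0.29 (SE 0.09, adjusted p 0.0738). Eif6, which keeps new large subunits from joining small ones too early, differed by -0.30 (SE 0.10, adjusted p 0.0890), and by -0.12 on its dimmest probe set (adjusted p 0.621). RNA polymerase I genes, which transcribe the large rRNA precursor, had a median of -0.11 over 12 tested. Among them 0 were past limma's threshold and 3 were lower at an unadjusted p under 0.05, against the same 10.5%. Polr1c, a subunit shared with RNA polymerase III, differed by -0.20 (SE 0.07, adjusted p 0.0875), by -0.13 over the mean of its probe sets and by -0.07 on the dimmest (adjusted p 0.718). Taf1a, of the promoter selectivity factor of polymerase I, differed by -0.36 (SE 0.16, adjusted p 0.204).

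Among translation initiation factors, 1 of 25 tested genes fell and 0 rose (4%, against 5.53% of all genes), with a median of -0.04. Eif3k, another eIF3 subunit, had signals of 6170, 6337 and 7003 (lowest, median, highest) in exercised arrays, against 6723, 7498 and 8446 in sedentary arrays. It fell by 0.22 (SE 0.06, limma adjusted p 0.0484), a call that held in 9 of 28 alternatives (0.0177 to 0.204). Eif4a2, a helicase of the cap-binding complex, differed by 0.17 (SE 0.07, adjusted p 0.193), and by 0.08 under quantile normalization. In the list of mTORC1 and the control of ribosomal protein mRNAs, 1 of 20 tested genes rose and 0 fell, with a median of 0.04. That share of 5% is near the 5.53% of all genes. The gene that rose was Mtor, the kinase itself, with signals of 3839, 4752 and 5431 in exercised arrays, against 3058, 3711 and 4240 in sedentary arrays. Its difference was 0.33 (SE 0.09, adjusted p 0.0432). The call held in 10 of 28 alternatives (0.0189 to 0.983). Its dimmest probe set gave -0.32, so its direction depends on the probe set. Sesn1, a sestrin that restrains mTORC1, differed by -0.40 (SE 0.13, adjusted p 0.0817), by -0.12 on its dimmest probe set (adjusted p 0.838), and by -0.26 without exercised arrays 5 and 7 and sedentary array 7.

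The mitochondrial ribosome, a separate machine that translates the few proteins encoded in mitochondrial DNA, had a positive median in the same arrays. Of its 76 genes, all tested, 65 had positive and 11 negative differences, 15 rose and 0 fell by limma's adjusted test (19.7%, against the 5.53% of all genes), and their median difference was 0.17, beside -0.10 for the cytosolic ribosomal proteins. Mrpl12, a large-subunit protein that also binds the mitochondrial RNA polymerase, had signals of 8816, 10372 and 11651 (lowest, median, highest) in exercised arrays, against 5668, 7358 and 9454 in sedentary arrays. All exercised arrays exceeded the sedentary median, and the difference was 0.49 (SE 0.10, adjusted p 0.00874), called in 26 of 28 alternatives (0.00452 to 0.0559). Mrps2, of the mitochondrial small subunit, had a difference of 0.50 (SE 0.10, adjusted p 0.0105), called in 25 of 28 (0.0058 to 0.265), with 0.21 on its dimmest probe set. No test of the difference between the 2 families was made.

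**Figure D5:**
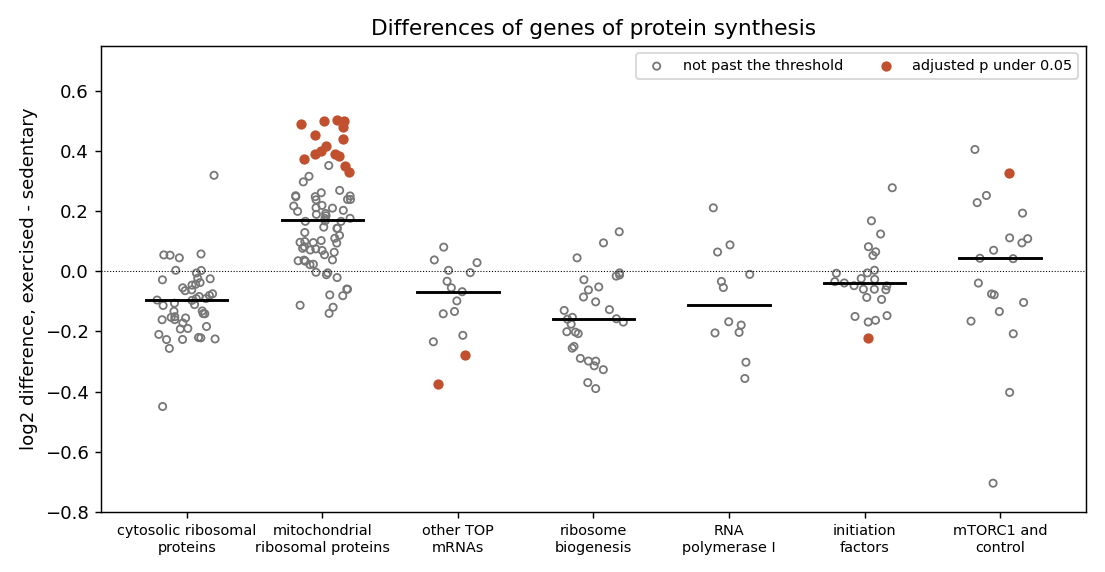
The log2 difference, exercised minus sedentary, of each tested gene of the cytosolic ribosomal proteins and of 6 other lists of protein synthesis, with filled points for a limma adjusted p under 0.05 and lines at list medians; Rpl3l, at 2.23, is left out of the picture but not of its median. The cytosolic median is -0.10 with 0 of 49 filled, and the mitochondrial median is 0.17 with 15 of 76 filled.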

How the data were processed

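Expression was measured in 14 arrays of mouse scWAT, 7 exercised and 7 sedentary, grouped by the group label, with replicate numbers from the titles. Deposited files hold linear intensity for 45101 probe sets per array, made by the authors with MAS5, per the submitters' processing notes (version and settings: not given in the sources used here). With 2% trimmed from both ends, all arrays had a mean of 1500; array medians ran from 531.3 to 617.4 and the highest signal was 112160. Scaling to the same mean removes differences in total RNA per cell, bright probe sets may saturate, and 7 arrays a group limit the precision.

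Signals were transformed as log2(signal + 46.7), the 10th percentile of all values, so folds of dim genes are understated. Control probe sets (64) and probe sets with a mean under 389.8, the 40th percentile, were left out. The platform annotation gave 1 symbol to 34945 probe sets, several to 932 and none to 9160; 34741 were updated through Entrez identifiers with a GRCm38.p6 gene table. The 12944 genes, each by its brightest probe set, were tested with limma 3.58.1 (R 4.3.3; trended eBayes), 2 groups, no covariate, Benjamini-Hochberg adjustment and a threshold of 0.05. The fit was tested on simulated data with genes drawn independently. It called 53% of differences of 0.5 and 91% of differences of 1, and 7.69% of its calls were false. Differences as small as most of the members', and genes that vary together, were not simulated. The members, the gene and marker lists and the alternatives were chosen with earlier results of these data known.

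Named genes were the 8 members with the largest differences, the 3 brightest and 3 dimmest, Rplp0, Rpsa, Rps6, Rpl3, the paralogs, and the 2 genes of smallest p in each list of the same process; Rps10, Rpl7, Rps16 and Tyrobp were added after their values were seen. No scan date, slide or batch is given in the sources used here. Alternatives covered normalization, pseudocount, filter, probe set choice, variance model, array weights, a block by replicate number, and arrays left out.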

Additional observations from a re-analysis of the deposited data

Results flagged for a closer look

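In 58 groups of 7 arrays, made from the named genes and the members' mean, a gap of the highest or lowest array to its nearest neighbour was compared with the range of the group (Dixon's test), and 5 groups exceeded the 95% critical value; chance alone exceeds it in about 5% of groups. The mean of the 49 members was 13.93 on the log2 scale in exercised array 5, against 14.09 to 14.19 in the other exercised arrays (gap over range 0.607). Rpl39l was 8.47 in sedentary array 7, against 10.25 to 10.83 in the other sedentary arrays (0.754). Nap1l1 was 13.61 in exercised array 6, against 13.89 to 14.07 in the other exercised arrays (0.611). Eif6 was 12.81 in sedentary array 5, against 12.10 to 12.38 in the other sedentary arrays (0.6). Mrps2 was 11.87 in sedentary array 1, against 11.36 to 11.55 in the other sedentary arrays (0.634).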

How the results depend on the processing

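Over 28 alternatives, 14 of which leave out 1 array, the members' median difference stayed negative, from -0.14 (without sedentary array 7) to -0.06 (centred on array medians), and 0 members were called higher. Rps6 was the 1 member called lower, with the filter at the 60th percentile, with array weights, without sedentary arrays 5 and 7, and without sedentary array 7. Centring on array medians gave 547 higher and 86 lower genes beside 518 and 198, and moved the median of all genes to 0.01 and that of the members to -0.06. With centring, 36 of 49 members were negative and 4 were lower at an unadjusted p under 0.05, against 6.83% of all genes. Under quantile normalization 21 members were lower, against 9.66% of all genes. The dimmest probe set gave 295 higher and 123 lower genes, array weights 398 lower, and the 3 arrays of lowest lymphocyte level left out, added after the data were seen, 160 higher and 57 lower. Leaving out 1 array gave 309 to 591 higher and 79 to 262 lower genes, 0 to 1 lower members and a median of -0.14 to -0.06. With the replicate number as a replicate block 136 genes were higher and 25 lower, with 0 members called. Same-numbered arrays correlated at -0.43 to 0.38 after the group means were removed, and 3 of 7 correlated best with their own number. The labels do not say whether equal numbers pair the arrays, and these correlations cannot settle it.

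Of 781 values of 28 named genes under these alternatives, 671 kept direction and side of the threshold, 63 lost the threshold, 8 gained it and 39 changed sign; the cause was not tested. The sign changed with quantile normalization for Rplp0 (-0.025), Rps27l (-0.11) and Rps29 (-0.064), and with centring on array medians for Rplp2 (0.013), Rps20 (0.032) and Rps4l (0.015). It changed with the mean of all probe sets for Rps20 (0.0019) and Rps27l (-0.033), and with the dimmest probe set for Mtor (-0.32), Rps20 (0.050), Rps27l (-0.046) and Rps29 (-0.0094). Without _x_at and _s_at probe sets Rps20 was 0.050 and Rps27l -0.056, with array weights Rps20 was 0.011, and without exercised arrays 5 and 7 and sedentary array 7 Rpl39l was -0.063 and Rps27l -0.0073. Leaving out 1 array gave -0.026 to 0.044 for Rplp0, -0.057 to 0.0088 for Rplp2, -0.051 to 0.040 for Rps20, -0.031 to 0.037 for Rps27l and -0.075 to 0.039 for Rps4l.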
